A study of Mus musculus with 10 samples.

Results

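The cerebellum of mice that lack Snx14 was compared with the cerebellum of control mice at the age of 1 year, across every expressed gene. The libraries taken were those whose labels name the cerebellum, 5 of the 10 in the series, and the other libraries came from the cerebral cortex of the same study. The 2 Snx14-KO mice carry a CRISPR/Cas9-made frameshift deletion in both copies of Snx14 in every cell of the body. The 3 controls are pooled as in the labels. Controls 1 and 2 are heterozygous (Het) and so carry 1 deleted copy, and control 3 is wild type (WT). All mice are on the C57BL/6J background, and no other allele or treatment is given for any group. Each library is a bulk mRNA library made from the RNA of whole tissue, so all cell types of the cerebellum are mixed in it. Of 55536 mouse genes in the count tables, 19447 had enough reads to be tested.

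Purkinje cells (PCs) are the only neurons that carry signals out of the cerebellar cortex, and they depend on calcium that is released from the endoplasmic reticulum when glutamate receptors at the parallel fibre synapse raise inositol trisphosphate. Granule cells supply the parallel fibres, and Bergmann glia, the astrocytes of the PC layer, wrap these synapses, clear glutamate and potassium, and respond to injury of their neighbours. SNX14 is a sorting nexin anchored in the endoplasmic reticulum, where it acts on lipid droplets and fatty acids, and its loss in people causes a cerebellar ataxia of childhood.

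The libraries held 17732506 to 22975355 gene counts. Snx14 itself (ENSMUSG00000032422.17, chr9:88376750-88438958 on the minus strand of GRCm38) was at 44.3, 41.5 and 76.1 CPM (counts scaled to a common library size of 1e6) in controls 1 to 3 and at 15.9 and 18.0 CPM in KO 1 and KO 2 (log2 fold change -1.66, SE 0.26, adjusted p = 0.014). Both KO values lay under all controls, and the WT value was the highest of the 5. By Xist and Y-linked counts, control 2 and KO 2 are male and the other mice are female. In a principal component analysis control 2 stood apart on the first component, which held 38.7% of the variance, and KO 1 on the second, which held 31.8%. The summed level of 12 choroid plexus and ependyma markers was 119.9 CPM in KO 1 against 1289 to 3617 CPM in the other libraries, and that of 10 fibroblast and meninges markers was 115 CPM in control 2 against 237 to 388 CPM in the others. The summed PC markers ranged from 15907 to 18500 CPM in the controls and stood at 9321 and 9096 CPM in the KO libraries, and 27 of the 35 were called lower. Granule cell markers held between 5627 and 6772 CPM in the controls and 6468 and 5650 CPM in the KO libraries, with 0 of 13 called by edgeR, 0 at an unadjusted p under 0.05 and 0 by DESeq2. In bulk tissue, fewer cells of a type and less RNA per cell cannot be told apart.

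The threshold for a call was an edgeR p, adjusted by Benjamini-Hochberg over all genes, of less than 0.05 together with a log2 fold change beyond 0.5 in either direction. By this rule 302 genes (1.55% of those tested) differed, of which 202 (1.04%) were lower and 100 (0.514%) were higher in Snx14-KO cerebella. The median log2 fold change over all tested genes was 0.00090, and 90% of genes lay between -0.48 and 0.60. The 2 groups of libraries were fully separate at all 302 calls and at 30.2% of all tested genes. The change was more than 2-fold for 73 of the lower calls and for 34 of the higher calls. Only 29 of the lower and 13 of the higher calls are in any of the 15 cell type marker lists, so the remaining 173 and 87 are described below by pathway, gene family, level and class. Together the lower calls summed to 35399, 31094 and 34881 CPM in controls 1 to 3 and to 18432 CPM in each KO library. The higher calls summed to 10284, 9671 and 10251 CPM in the controls and to 16634 and 16836 CPM in KO 1 and KO 2. These sums describe genes chosen on the same values and carry no test.

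**Figure D1:**
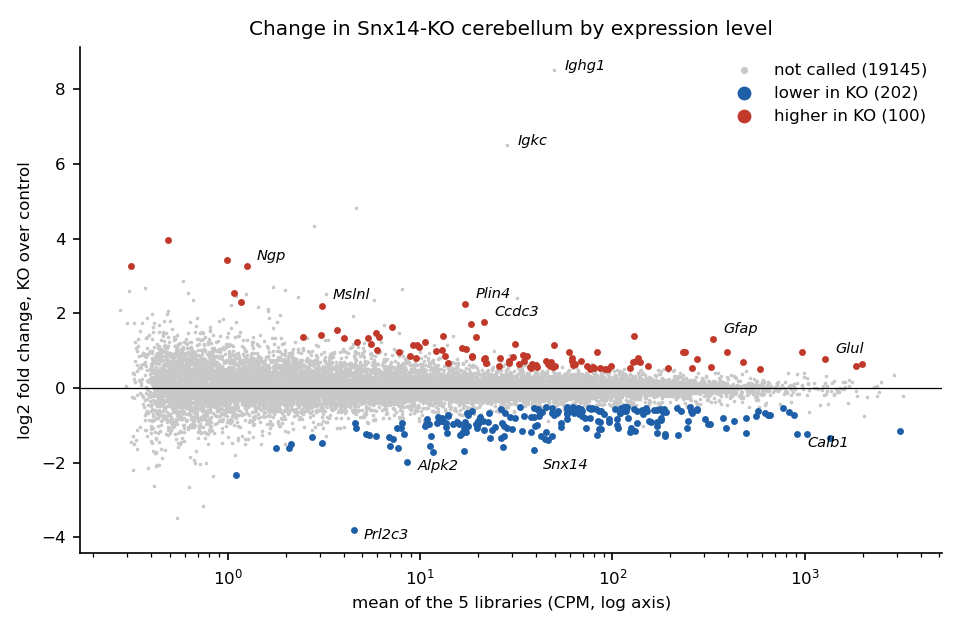
Log2 fold change of each of the 19447 tested genes against its mean over the 5 libraries (CPM, log axis). The 202 lower calls (blue) reach further to the right than the 100 higher calls (red), and the largest values, those of the immunoglobulin genes Ighg1 and Igkc, were not called because only KO 1 is high.

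The share of genes called grew with expression level. Of the 2353 genes with a mean under 1 CPM only 3 were called (0.127%), all higher, whereas 89 of the 2495 genes over 100 CPM were called (3.57%). At the highest level the calls were mostly falls, with 68 lower and 21 higher, whereas between 3 and 10 CPM 16 genes were lower and 17 were higher. The error fell with level in the same way, from a median SE of 0.47 under 1 CPM to 0.074 over 100 CPM, so a call among scarce genes needed a larger change. Accordingly the median rise of the higher calls was 2.42 on the log2 scale between 1 and 3 CPM and 0.70 over 100 CPM. The median absolute change of all tested genes also fell, from 0.36 to 0.077, and stayed close to its SE in every class.

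**Figure D2:**
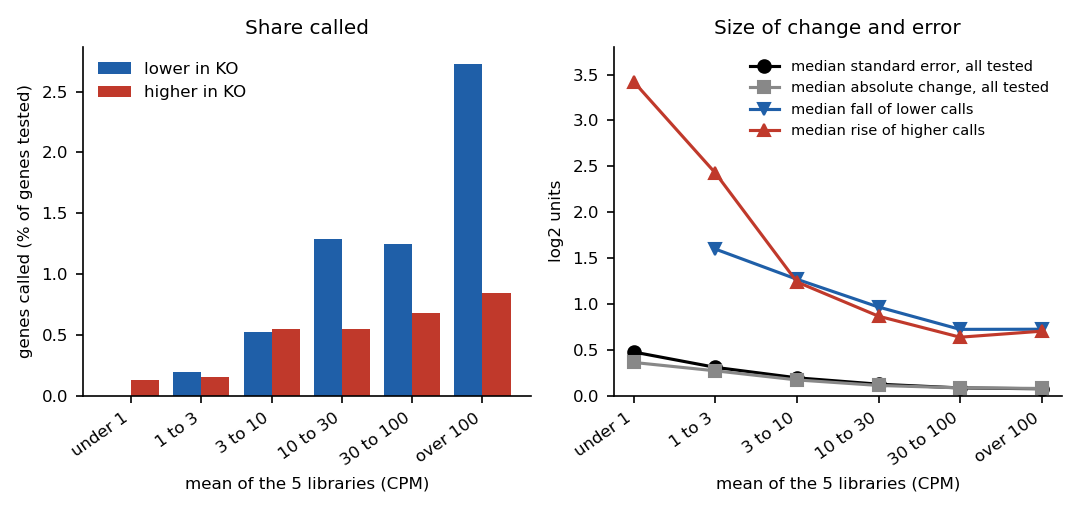
Left, the percentage of tested genes called lower (blue) and higher (red) in 6 classes of mean level (CPM). Right, the median SE and the median absolute log2 change of all tested genes, beside the median size of the calls in each direction (log2 units). The share of lower calls rises to 2.73% over 100 CPM, where the share of higher calls is 0.842%.

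Among lower coding calls whose mean reached 1 CPM, the largest falls were in scarce genes. Prl2c3, a proliferin of the prolactin family, was at 8.12, 4.62 and 8.82 CPM in the controls and at 0.339 and 0.643 CPM in the KO libraries, 14.02-fold lower (log2 fold change -3.81, SE 0.40, adjusted p = 0.00321). Its neighbour in the same cluster, Prl2c2, was at 2.08, 1.49 and 1.32 CPM and 0.396 and 0.257 CPM (log2 fold change -2.33, SE 0.42, adjusted p = 0.0278). The proliferins are near-identical copies, so how reads were divided between them is uncertain. Of the fits that leave out a control, those without control 1 and without control 3 did not call Prl2c2. Its log2 fold change ranged from -2.64 to -2.03 when 1 library, control or KO, was left out. Alpk2, an alpha-kinase, fell from 14.5, 10.7 and 11.6 CPM to 2.94 and 3.26 CPM (log2 fold change -1.98, SE 0.19, adjusted p = 0.00187). Tnc, which encodes the extracellular matrix protein tenascin-C, was at 26.6, 25.6 and 18.3 CPM in the controls and 5.54 and 8.96 CPM in the KO libraries (log2 fold change -1.69, SE 0.23, adjusted p = 0.00962). Each of these 4 genes was lower in both KO libraries than in any control.

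Among higher calls whose mean reached 1 CPM, the largest changes were those of Ngp, Lcn2, Galr1, Plin4 and Mslnl. Plin4, a perilipin that coats lipid droplets, was at 5.41, 3.08 and 12.2 CPM in controls 1 to 3 and at 39.9 and 24.8 CPM in KO 1 and KO 2 (log2 fold change 2.24, SE 0.45, adjusted p = 0.0455). The controls spread widely here, with the WT mouse the highest, yet both KO values lay above it. Of the fits that leave out a control, that without control 1 did not call Plin4. Fits without KO 1 or KO 2 keep 1 KO library, so here they are read for the size of change only. The log2 fold change of Plin4 ranged from 1.86 to 2.93 when 1 library was left out. Galr1, a receptor for the neuropeptide galanin, rose from 0.580, 0.433 and 0.317 CPM to 2.49 and 2.01 CPM (log2 fold change 2.31, SE 0.34, adjusted p = 0.0123). Mslnl, which resembles mesothelin, rose from 1.01, 1.15 and 1.64 CPM to 6.67 and 5.06 CPM (log2 fold change 2.20, SE 0.26, adjusted p = 0.00476). Ngp and Lcn2 encode neutrophil granule proteins and are taken up with the immune genes.

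Signalling through inositol phosphates and calcium stores held more calls than any other list outside the cell type markers except the solute carriers. Of its 30 tested genes 7 fell and 1 rose, against 1.04% of all genes lower and 0.514% higher, while the list's median of -0.02 was close to that of all genes (0.00090). Itpka, which phosphorylates inositol trisphosphate, was at 59.8, 51.0 and 56.5 CPM in the controls and 21.6 and 23.8 CPM in the KO libraries, 2.45-fold lower (log2 fold change -1.29, SE 0.099, adjusted p = 0.000657). Itpr1, the calcium channel that inositol trisphosphate opens, was the most abundant of the group, at 4399.9, 3073 and 4506 CPM in the controls and 1819 and 1763 CPM in the KO libraries (log2 fold change -1.16, SE 0.17, adjusted p = 0.012). Neither gene had a KO value within the control range. Without KO 1 the list held 4 falls, and without KO 2, control 1 or control 3 it held 5.

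The pump that refills the store, Atp2a3, changed by -1.25 (SE 0.11, adjusted p = 0.00096), and Ryr1, the ryanodine-gated release channel, by -0.79 (SE 0.11, adjusted p = 0.00898). Homer3, a scaffold that ties glutamate receptors to the release channel, was at 407, 389 and 399.6 CPM in the controls and 205 and 204 CPM in the KO libraries (log2 fold change -0.96, SE 0.068, adjusted p = 0.000467). The phosphatases Inpp5a, which removes a phosphate from inositol trisphosphate, and Inpp4a changed by -0.89 and -0.53. Against this direction Itpkb, the second inositol trisphosphate kinase of the list, rose from 107, 105 and 100.1 CPM to 148 and 155 CPM (log2 fold change 0.55, SE 0.06, adjusted p = 0.00365). Further upstream, the phospholipase Plcb4 had a negative value that did not pass (-0.37, adjusted p = 0.0744). Of the 8 genes called, 3 (Homer3, Atp2a3 and Itpr1) are also in the PC marker list, whose summed level in the KO libraries was 53.1% and 51.8% of the control mean, and the part of that change in these falls was not tested.

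Among 33 calcium-binding proteins 6 fell (18.2%, against 1.04% of all genes) and none rose. Kcnip1, a calcium sensor that associates with voltage-gated potassium channels, was at 63.4, 65.3 and 62.0 CPM in the controls and 25.2 and 26.6 CPM in the KO libraries (log2 fold change -1.29, SE 0.076, adjusted p = 0.000444). Its relative Kcnip4 fell by 0.56 on the log2 scale (SE 0.067), and the store protein Casq2, calsequestrin, by 1.16 (SE 0.095). Hpcal1, a neuronal calcium sensor, changed less, from 258, 299.8 and 236 CPM to 172 and 174 CPM (log2 fold change -0.62, SE 0.10, adjusted p = 0.0175). The other members that fell, Calb1 and Pcp4, are PC markers, as is Casq2.

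Receptors and channels of the synapse moved in part. Of 27 glutamate receptor genes 4 fell (14.8%, against 1.04% of all genes), among them the kainate receptor Grik1 (-0.87) and the AMPA receptor Gria1 (-0.61). Without KO 1 or without control 1 the count of falls dropped to 1, and without KO 2 or control 3 to 2. Gria1 was at 678, 577 and 727 CPM in the controls and 441 and 426 CPM in the KO libraries (SE 0.11, adjusted p = 0.0263). The 18 GABA and glycine receptor genes held 0 edgeR calls and 0 DESeq2 calls, although 9 had an unadjusted p under 0.05, with a median of 0.18. Potassium channel genes, 77 in all and including auxiliary subunits, held 4 falls (5.19%), namely Kcnip1, Kcnab1, Kcng4 and Kcnip4, and no rise, and their median was 0.06. Leaving out control 2 raised the falls to 9. Kcng4, a silent subunit of voltage-gated potassium channels, went from 209.7, 194 and 224 CPM to 107 and 116 CPM (log2 fold change -0.91, SE 0.079, adjusted p = 0.00107). Calcium and sodium channel genes held 3 falls (Cacna1g and Cacna2d2 among them) and 1 rise (Cacng4) among 57, which is 5.26% lower and 1.75% higher.

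Lists of signalling enzymes and their regulators were called in part, where 1.04% of all genes were lower and 0.514% higher. The 14 adenylate and guanylate cyclases held 0 edgeR calls and 0 DESeq2 calls, with 3 at an unadjusted p under 0.05. For the 21 dual specificity phosphatases these counts were 0, 0 and 5. Of 35 protein phosphatase 1 regulatory subunits 3 were called (8.57%), 1 higher and 2 lower. Of 24 genes of endocannabinoids and lipid mediators, Dagla fell and Ptgds rose. Dagla, which makes the endocannabinoid 2-arachidonoylglycerol, was at 109.9, 88.7 and 111 CPM in the controls and 54.3 and 56.8 CPM in the KO libraries (log2 fold change -0.89, SE 0.10, adjusted p = 0.00463). Prkg1, the kinase that cyclic GMP activates, was at 56.2, 38.9 and 49.8 CPM and 20.8 and 22.2 CPM (log2 fold change -1.17, SE 0.15, adjusted p = 0.00697). Both phosphodiesterases called of 22 tested, Pde5a (-0.92) and Pde9a (-0.53), degrade cyclic GMP. Camk2a, a kinase of synaptic plasticity and the 1 call among 14 calmodulin-dependent kinases, changed by -0.91 (SE 0.11), and Ptprr, a tyrosine phosphatase that acts on MAP kinases, fell from 136, 127 and 129.8 CPM to 67.9 and 64.9 CPM (log2 fold change -0.98, SE 0.063, adjusted p = 0.000444). Of 58 Arhgap and Arhgef genes, whose products regulate small GTPases that shape the actin of dendrites and spines, 4 fell (Arhgef33, Arhgap20, Arhgap26 and Arhgap31) and 0 rose by edgeR, yet 38 of the 58 had a positive value and the median was 0.07. Only 1 of these falls was called when control 1, control 3 or either KO library was left out. The scaffolds Dlg2 and Shank2 of the postsynaptic density changed by -0.56 (SE 0.10) and -0.62 (SE 0.12).

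**Figure D3:**
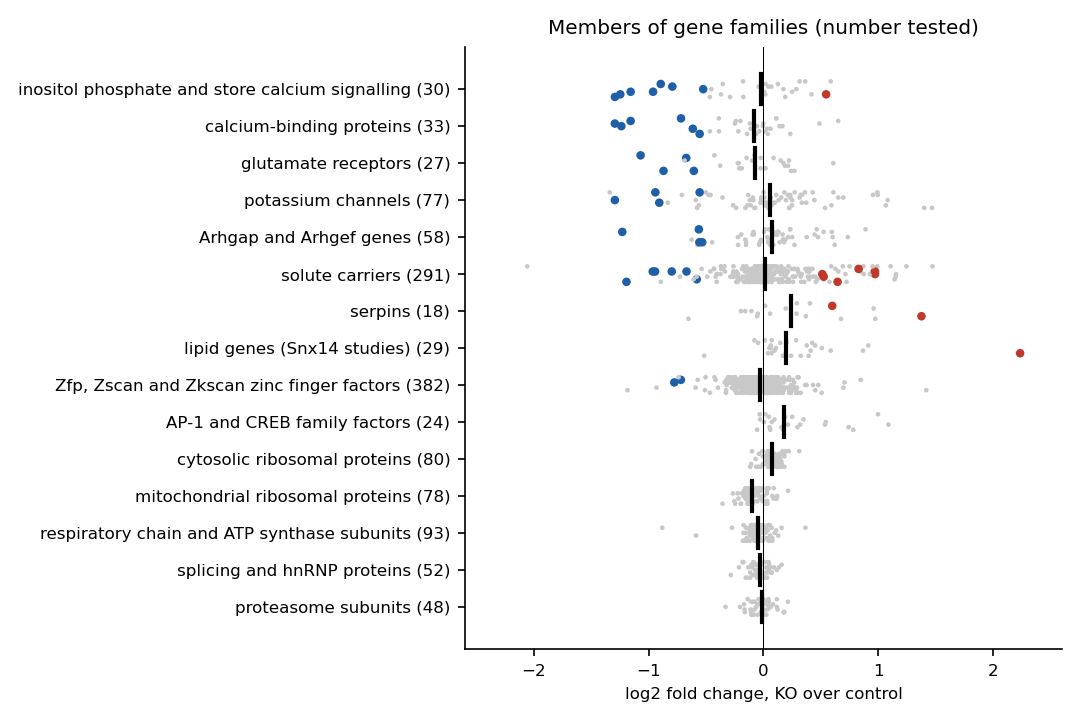
Log2 fold change (KO over control) of every tested member of 15 gene lists, with the number tested in brackets. Small grey points were not called, large blue and red points were called lower and higher, and the black bar is the list's median. Calls of the signalling lists form a tail to the left while their medians lie near 0, and ribosomal, respiratory, splicing and proteasome genes lie close to 0 with no call.

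Among the protein-coding genes with the smallest p that are in no marker list, several have roles outside the synapse. Hes3, a transcriptional repressor of the Hes family, was at 57.3, 59.9 and 57.9 CPM in the controls and 25.0 and 26.1 CPM in the KO libraries (log2 fold change -1.19, SE 0.077, adjusted p = 0.000444). Nrk, a Nik-related kinase on the X chromosome, was at 65.6, 57.0 and 61.3 CPM and 22.2 and 24.2 CPM (log2 fold change -1.40, SE 0.093, adjusted p = 0.000444). Cep76, a protein of the centrosome, was at 170.5, 144 and 161 CPM and 70.6 and 70.5 CPM (log2 fold change -1.17, SE 0.081, adjusted p = 0.000462). KO 1 and KO 2 lay close together for Hes3, Nrk and Cep76, and the control values of each gene spanned less than the gap to the KO libraries. Choosing genes by a small p favours such values, so this is a description only. Tmem255a (-1.04), the RNA helicase gene Ddx49 (-0.86) and Garnl3 (-1.01) completed this set. Singled out after their values were seen, the further centrosomal genes Cep72 (-1.08), Cep126 (-0.78) and Ninl (-0.74) were also called lower, as was Kitl, the ligand of the Kit receptor, at 184, 144 and 180.2 CPM in the controls and 76.5 and 75.1 CPM in the KO libraries.

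Transcription factor lists held 2 calls at most. Of 382 zinc finger factors named Zfp, Zscan or Zkscan 2 fell (0.524%, against 1.55% of all genes), Zfp385c by 0.78 and Zfp658 by 0.72. Among 36 homeobox factors, Lhx1 and Hopx fell (5.56%), and among 38 basic helix-loop-helix factors 1 was called (2.63%), the clock factor Npas2, which rose from 3.43, 2.17 and 3.49 CPM to 6.90 and 7.37 CPM (log2 fold change 1.24, SE 0.23, adjusted p = 0.0301). Outside these lists, and named after their values were seen, Ebf2 was at 11.2, 9.67 and 7.61 CPM in the controls and 2.37 and 4.07 CPM in the KO libraries (log2 fold change -1.54, SE 0.26, adjusted p = 0.0219), and Skor2, Bcl11a and Nkx6-2 changed by -0.95, -0.81 and -0.67. Skor2 and Bcl11a are also in the PC marker list, and Hopx is in the Bergmann glia and astrocyte list. The part of the marker shifts in these values was not tested. Gli1, an effector of Hedgehog signalling, changed by -0.71 (SE 0.14, adjusted p = 0.0467). The 24 AP-1 and CREB family factors, which follow neuronal activity, held 0 edgeR calls and 1 by DESeq2, with 7 at an unadjusted p under 0.05. Of these 24, 21 had a positive value, and their median was 0.18.

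Extracellular matrix genes moved in both directions. Of 42 collagens 2 fell (4.76%, against 1.04% of all genes lower) and 0 rose by edgeR. Col18a1, the collagen XVIII of basement membranes, was at 120.3, 109 and 105 CPM in the controls and 47.4 and 55.8 CPM in the KO libraries (log2 fold change -1.11, SE 0.092, adjusted p = 0.000937), and Col5a1 changed by -1.08. Both serpins called of 18 rose (11.1%, against 0.514% of all genes higher). Serpine2, an inhibitor of thrombin and plasminogen activators, went from 121, 133 and 127 CPM to 184 and 201 CPM (log2 fold change 0.60, SE 0.07, adjusted p = 0.00472). The acute-phase gene Serpina3n rose by 1.38 (SE 0.24). Named after their values were seen, Plat, the tissue plasminogen activator, rose from 32.3, 35.4 and 32.3 CPM to 52.6 and 48.7 CPM (log2 fold change 0.60, SE 0.084, adjusted p = 0.00935), and F3, tissue factor, from 68.5, 54.9 and 60.9 CPM to 97.7 and 87.6 CPM (log2 fold change 0.59, SE 0.097, adjusted p = 0.0189). Pros1, which encodes the anticoagulant protein S, and Vtn, vitronectin, changed by 0.66 and 0.65. For all 4 of these genes the KO values stood above every control, but the groups were fully separate at all 302 calls. Of the fits that leave out a control, none called Pros1. Plat was not called without control 1 or control 3, and F3 and Vtn were not called without control 3. Itih5, a hyaluronan-binding protein of the matrix, rose from 48.1, 42.7 and 52.0 CPM to 85.4 and 80.6 CPM (log2 fold change 0.80, SE 0.088, adjusted p = 0.00364).

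Transporters of small molecules were called in equal number in each direction, 6 higher and 6 lower of 291 solute carriers, which is 4.12% against 1.55% of all genes. The risers carry amino acids, glucose, zinc and GABA. They were the glutamine carrier Slc38a3 (0.52), the zinc carrier Slc39a12 (0.51), the insulin-responsive glucose carrier Slc2a4 (0.97), the cationic amino acid carrier Slc7a2 (0.65), the cystine-glutamate exchanger Slc7a11 (0.83) and the GABA carrier Slc6a11 (0.97). Slc7a11 was at 26.6, 20.1 and 22.8 CPM in the controls and 37.6 and 44.6 CPM in the KO libraries (log2 fold change 0.83, SE 0.13, adjusted p = 0.0159). Slc6a11 rested more on 1 library, with 41.3, 42.6 and 44.9 CPM in the controls and 60.2 and 108 CPM in KO 1 and KO 2. The fallers were Slc41a3 (-0.80), the sodium-proton exchanger Slc9a3 (-1.19), the glutamate carrier of PCs Slc1a6 (-0.58), the sodium-glucose carrier Slc5a1 (-0.96), Slc35f1 (-0.67) and Slc12a8 (-0.94). Leaving out KO 2 left 1 rise and 4 falls, and leaving out control 1 left 2 and 3. Without control 2 there were 3 rises, and without control 3 or KO 1 there were 3 falls.

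Enzymes of amino acid and glycogen metabolism were among the higher calls and were singled out after their values were seen. Glul, glutamine synthetase, was at 978, 933 and 1069 CPM in the controls and 1698 and 1686 CPM in the KO libraries (log2 fold change 0.77, SE 0.093, adjusted p = 0.00526). The mitochondrial alanine aminotransferase Gpt2 (0.63), the proline dehydrogenase Prodh (0.73), the cystathionine synthase Cbs (0.60), the quinolinate-processing enzyme Qprt (1.17) and the sulfate-activating enzyme Papss2 (0.80) were called higher too. Pygm, a glycogen phosphorylase, rose from 84.8, 81.0 and 79.6 CPM to 117 and 127 CPM (log2 fold change 0.58, SE 0.064, adjusted p = 0.00364), and Ppp1r3c, which directs protein phosphatase 1 to glycogen, changed by 0.56 (SE 0.11). In contrast, Hk2, a hexokinase, was the only gene called of 24 on the glycolysis list and fell from 22.4, 22.7 and 18.4 CPM to 9.61 and 12.8 CPM (log2 fold change -0.91, SE 0.16, adjusted p = 0.0254). Beside these values, the summed Bergmann glia and astrocyte markers were 7665 to 7973 CPM in the controls and 9317 and 9343 CPM in the KO libraries, with 5 of 19 higher and 2 lower. Without control 1 these counts were 3 and 1, and without control 3 or either KO library 1 was lower. The part of this shift in the enzyme and transporter values was not tested.

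Lipid genes linked to Snx14 biology held 1 call, Plin4, among 29 tested (3.45% higher, against 0.514% of all genes). Of the fits that leave out a control, that without control 1 lost this call, and fits with 1 KO library are not read for calls here. Of the 29 genes 26 had positive values, and the median was 0.19. Of apolipoproteins outside that list, 3 calls were picked after their values were seen. Apoe, which is also a Bergmann glia and astrocyte marker, was at 1526, 1691 and 1632 CPM in the controls and 2418 and 2642 CPM in the KO libraries (log2 fold change 0.65, SE 0.096, adjusted p = 0.0124), Apod changed by 0.57, and clusterin, Clu, by 0.52. Ptgds, which makes prostaglandin D2 and carries lipophilic ligands, was at 912, 582 and 624 CPM in the controls and 1218 and 1516 CPM in the KO libraries (log2 fold change 0.95, SE 0.19, adjusted p = 0.0433). Of the fits that leave out a control, those without control 2 and without control 3 did not call Ptgds. Its log2 fold change ranged from 0.785 to 1.18 when 1 library, control or KO, was left out. Mfsd2a, a carrier of lysophospholipids with docosahexaenoic acid, rose from 7.83, 5.20 and 7.45 CPM to 17.8 and 14.6 CPM (log2 fold change 1.24, SE 0.19, adjusted p = 0.0142).

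**Figure D4:**
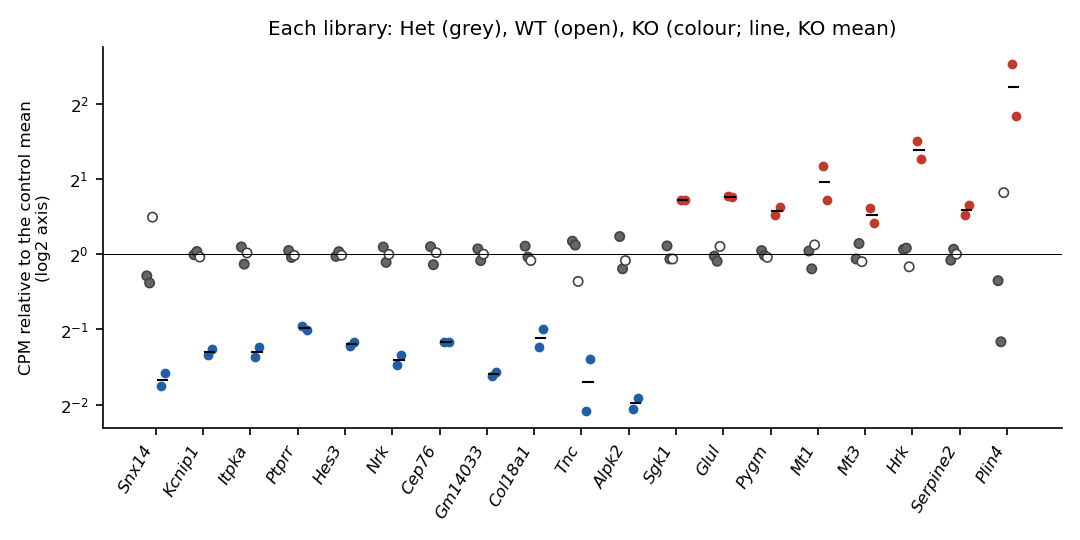
CPM of 19 named genes in each library relative to the mean of the 3 controls (log2 axis), with Het controls in grey, the WT control open and KO libraries in blue or red, and the KO mean as a line. KO and control points do not overlap for any of the 19 genes, and for Plin4, Snx14 and Tnc the controls spread most.

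Genes of stress and cell death contributed a few calls. Sgk1, the serum and glucocorticoid regulated kinase, had the smallest p of the higher coding calls that are outside the marker lists and share under 50% of their exonic bases, at 113, 100.3 and 100.2 CPM in the controls and 173 and 172 CPM in the KO libraries (log2 fold change 0.72, SE 0.07, adjusted p = 0.00196). Hrk, a pro-apoptotic BH3-only protein of neurons, rose from 8.31, 8.42 and 7.08 CPM to 22.7 and 19.2 CPM (log2 fold change 1.39, SE 0.14, adjusted p = 0.00219). Bok, another pro-apoptotic relative of Bcl2, was called in the other direction (-0.79). Prdx6, an antioxidant peroxiredoxin, rose by 0.55 (SE 0.06), Rapgef3, a cyclic AMP sensor, by 0.79 (SE 0.086) and Cntfr, the receptor of ciliary neurotrophic factor, by 0.70 (SE 0.077). The 17 p53 targets held 0 edgeR calls and 0 DESeq2 calls with 3 at an unadjusted p under 0.05, and the 68 heat shock and J-domain chaperones 0, 0 and 5.

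All 3 metallothioneins tested were called higher. These small cysteine-rich proteins bind zinc and copper, and their genes lie in a row on chromosome 8. Mt1 (chr8:94179082-94180327) was at 294, 249 and 311 CPM in the controls and 642 and 468 CPM in the KO libraries (log2 fold change 0.96, SE 0.14, adjusted p = 0.0114). Mt2 (chr8:94172664-94173568) was at 183, 140.3 and 194 CPM and 382 and 294 CPM (log2 fold change 0.97, SE 0.15, adjusted p = 0.0135), but 73.5% of its exonic bases lie in another gene, so its counts are shared with the antisense gene Gm45774. Mt3 (chr8:94152607-94154146), the form most typical of brain, changed less, from 211, 244 and 206 CPM to 339 and 295 CPM (log2 fold change 0.52, SE 0.095, adjusted p = 0.0296). KO 1 was higher than KO 2 for all 3, and neither overlapped the controls. Without control 1 none of the 3 was called, and without KO 1 only 1 was. Summed, the 3 genes held 633 to 711 CPM in the controls and 1363 and 1057 CPM in KO 1 and KO 2.

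Metallothionein genes are classic targets of the metal response factor, which binds the metal response element, so the sequences just upstream of their annotated starts are shown here. Each run holds the 250 bases before the RefSeq start (build GRCm38.p6, plus strand), and the capitals mark matches to TGCACNC or TGCGCNC on either strand.
Mt1 (chr8:94178839-94179088): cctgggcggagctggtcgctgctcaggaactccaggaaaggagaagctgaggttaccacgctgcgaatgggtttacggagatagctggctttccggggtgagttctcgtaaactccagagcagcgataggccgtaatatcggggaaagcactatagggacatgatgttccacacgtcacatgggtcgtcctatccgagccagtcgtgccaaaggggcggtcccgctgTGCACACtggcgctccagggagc
Mt2 (chr8:94172368-94172617): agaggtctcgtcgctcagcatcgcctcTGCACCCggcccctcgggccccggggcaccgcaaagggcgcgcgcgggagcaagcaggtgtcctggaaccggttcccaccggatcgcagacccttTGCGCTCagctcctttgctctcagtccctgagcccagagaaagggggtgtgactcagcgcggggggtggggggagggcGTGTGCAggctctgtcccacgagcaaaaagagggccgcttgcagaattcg
Mt3 (chr8:94152357-94152606): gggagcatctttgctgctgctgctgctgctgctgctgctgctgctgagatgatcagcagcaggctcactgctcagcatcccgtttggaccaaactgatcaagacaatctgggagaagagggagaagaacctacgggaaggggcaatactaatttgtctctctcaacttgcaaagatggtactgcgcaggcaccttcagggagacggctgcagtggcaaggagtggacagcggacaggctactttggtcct
The Mt1 run holds 1 match, the Mt2 run 3 and the Mt3 run 0. With the 50 bases after the start added, the counts over 300 bases were 3, 4 and 1. Other transcripts of these genes start further downstream, and the bases next to those starts were not searched. These letters are common, since 34.7% of the 300-base promoter windows of all tested genes with a RefSeq entry hold at least 1 match, as do 29.9% of those of the higher calls and 35.4% of those of the lower calls. Promoter windows were found for 216 of the symbols called and 12609 of those tested, 16095 windows in all.

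Other short motifs were searched in the same windows on both strands and are given as shares only. TATAAA was present in 16.5% of the 97 windows of higher calls, in 6.77% of the 192 windows of lower calls and in 7.57% of all windows. The STAT motif TTCNNNGAA was found in 11.3%, 7.81% and 6.87%, and the AP-1 motif TGANTCA in 7.22%, 3.12% and 5.31%. AGGTCA, the nuclear receptor half-site, was in 14.4% of windows of higher calls, 13.5% of those of lower calls and 12.8% of all. The cyclic AMP response element TGACGTCA was in 3.09%, 4.17% and 2.75%, and the E-box CACGTG in 9.28%, 9.90% and 9.16%. The windows of 1 gene can overlap, and no share was tested.

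Immune lists were called in part. Of 24 microglia and macrophage markers 6 rose (25%, against 0.514% of all genes higher). Without control 1 the count was 3, and by DESeq2 it was 11. Of 54 chemokines, interleukins and their receptors 1 rose (1.85%), the chemokine Cxcl14 (0.60). Outside these lists, the Fc receptor Fcgr2b was at 2.71, 2.41 and 2.43 CPM in the controls and 5.43 and 7.16 CPM in the KO libraries (log2 fold change 1.33, SE 0.20, adjusted p = 0.0124), and the macrophage perforin Mpeg1 at 16.7, 15.3 and 18.7 CPM and 29.9 and 27.5 CPM (log2 fold change 0.77, SE 0.11, adjusted p = 0.0129). H2-Eb1, a class II antigen-presenting molecule, was the 1 call among 19 MHC genes (5.26% higher). It rose from 2.42, 1.35 and 1.74 CPM to 5.43 and 4.41 CPM (log2 fold change 1.42, SE 0.27, adjusted p = 0.0356). The 14 guanylate-binding and immunity-related GTPases, which respond to interferon, held 0 edgeR calls and 0 DESeq2 calls with 1 at an unadjusted p under 0.05, and 6 of the 14 were positive. Transcripts of neutrophil granules were scarce but higher, with Ngp at 0.290, 0.289 and 0.264 CPM in the controls and 1.53 and 3.90 CPM in the KO libraries (log2 fold change 3.26, SE 0.47, adjusted p = 0.0114). Lcn2 was at 0.628, 0.192 and 0.264 CPM and 2.54 and 1.76 CPM (log2 fold change 2.53, SE 0.46, adjusted p = 0.0306), and Ltf, lactoferrin, at 0.290, 0 and 0.317 CPM and 1.41 and 2.91 CPM (log2 fold change 3.42, SE 0.67, adjusted p = 0.0436). S100a8 and S100a9, which neutrophils also carry, had values of 2.53 and 1.87 that were not called (adjusted p = 0.081 and 0.222). The summed blood cell markers were 6.1 to 20.4 CPM in the controls and 27.6 CPM in KO 2, with KO 1 within the range of the controls, and their part in these values was not tested.

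Families that every cell uses held few calls or none. The 80 cytosolic ribosomal protein genes had 0 edgeR calls, 0 DESeq2 calls and 1 gene at an unadjusted p under 0.05. Their median was 0.07, and 68 of the 80 were positive. The 78 mitochondrial ribosomal proteins had 0, 0 and 5, with a median of -0.10 and 18 positive values. For the 93 subunits of the respiratory chain and ATP synthase the counts were 0, 0 and 4, with a median of -0.04 and 23 positive values. The 48 proteasome subunits had 0, 0 and 4 with a median of -0.01, and the 52 splicing and hnRNP proteins 0, 0 and 3 with a median of -0.03. The protocadherins, adhesion proteins that give neurons an identity, had 0 calls by either tool among 68 genes, but 11 had an edgeR adjusted p under 0.05 with changes short of the fold threshold. An adjusted p under 0.05 was found for 417 of all 19447 genes. Only 16 of the 68 protocadherins were positive. All 11 belong to the alpha cluster, with values from -0.38 for Pcdhac2 to -0.34 for Pcdha11. Members of this cluster share exons, up to 93.0% of the exonic bases for Pcdha4, so a read pair can be counted for several of them. In total 35 of the 75 lists outside the cell type markers had no edgeR call, 31 had at least 1 lower call and 19 at least 1 higher call.

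Genes that do not code for protein made up 31 of the 302 calls, 25 lower and 6 higher, which is 0.693% of the 4473 tested against 1.81% of the 14974 protein-coding genes. Long noncoding RNAs accounted for 28 of them, 25 lower and 3 higher of 3398 (0.824%). Among genes with a mean of at least 10 CPM the shares were 2.80% of 678 long noncoding genes and 2.22% of 10630 coding genes. By type, 13 of 1356 antisense genes, 6 of 752 lincRNAs, 5 of 666 unassigned loci that GENCODE lists as TEC and 3 of 430 processed transcripts were called. Pseudogenes held 0 edgeR calls and 0 DESeq2 calls among 570, with 33 at an unadjusted p under 0.05. The 124 snoRNA genes also held 0 and 0, with 10 at an unadjusted p under 0.05, although 106 of them had a negative value and their median was -0.35, against 0.00090 over all genes. Summed, the snoRNA genes were at 169.7, 183 and 193 CPM in controls 1 to 3 and at 151 and 135 CPM in KO 1 and KO 2.

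Many noncoding calls lie beside a coding gene that was called. Within 5 kb of 17 of the 31 (54.8%) there was a called protein-coding gene, as against 2.62% of all 4473 noncoding genes tested, and all 17 changed in the direction of that neighbour. In 14 of the 17 the neighbour is on the opposite strand. The counting did not use strand, so reads of a gene and of its antisense partner cannot be told apart. Gm29529 fell beside Rgs8, and Gm44101 and Gm44040 beside Itpr1. AC113458.1 (chr3:64949223-65223701) shares no exonic bases with another gene, although its span overlaps part of that of Kcnab1. It was at 17.8, 15.3 and 15.4 CPM in the controls and 4.75 and 5.14 CPM in the KO libraries, a larger change (-1.71, SE 0.15) than that of Kcnab1 (-0.94, SE 0.062). Gm43398 (chr5:143395503-143398244) had the second smallest p of all genes, at 112, 107 and 108 CPM and 50.3 and 51.1 CPM (log2 fold change -1.10, SE 0.062, adjusted p = 0.000444). In the higher direction Gm26776 lies almost wholly within the exons of Ccdc3, with 98.6% of its bases shared, and Gm45774 is the antisense partner of Mt2. Both miRNA genes called, Mir8114 (0.72) and Gm23134 (0.99), lie fully inside exons of other genes and beside Glul and Nnat, which rose as well, so their counts cannot be read as mature miRNA.

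The other 14 noncoding calls had no called coding gene within 5 kb. Gm14033 (chr2:55411790-55433435), a lincRNA with no exonic overlap, was at 38.7, 34.7 and 36.8 CPM in the controls and 11.99 and 12.4 CPM in the KO libraries, 3.01-fold lower (log2 fold change -1.59, SE 0.099, adjusted p = 0.000444). The nearest coding gene tested, Kcnj3, had a log2 fold change of -0.16 and was not called. Gm5083 (chr13:44121167-44125179), a lincRNA with no coding gene tested nearby, was at 21.2, 22.1 and 19.8 CPM and 7.92 and 9.64 CPM (log2 fold change -1.25, SE 0.13, adjusted p = 0.00333). The antisense gene Gm13944 (chr2:77462669-77480938) fell from 7.78, 8.23 and 7.29 CPM to 2.71 and 3.64 CPM (log2 fold change -1.28, SE 0.19, adjusted p = 0.012), while its partner Zfp385b had a value of 0.08. In these 3 genes the controls lay close together and well above both KO libraries, but the genes were chosen on the same values. Gm37069 (chr1:182494156-182498297) rose from 1.40, 1.40 and 1.69 CPM to 4.41 and 3.39 CPM (log2 fold change 1.37, SE 0.24, adjusted p = 0.0226).

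**Figure D5:**
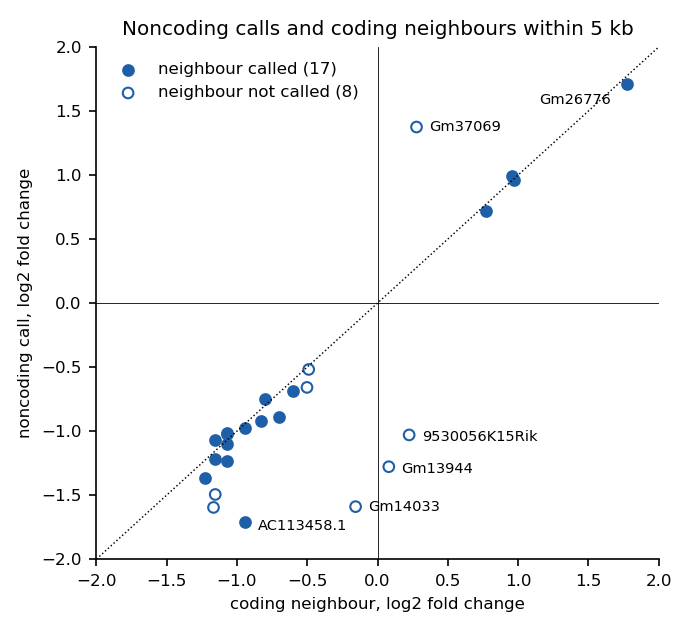
Log2 fold change of noncoding calls against that of a coding neighbour within 5 kb, for 17 calls whose neighbour was called (filled) and 8 whose neighbour was not (open), with the line of equality dotted. The 6 calls with no coding gene tested nearby are not drawn. The filled points lie near the line, with AC113458.1 below it, while Gm14033, Gm13944, 9530056K15Rik and Gm37069 lie away from it.

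Protein-coding calls were also found side by side. Of 271 coding calls 25 (9.23%) lay within 5 kb of another coding call, against 1.01% of all 14974 coding genes that lay that near to one. They formed 14 pairs, both members of each pair moved the same way, 10 pairs were lower, and in 12 pairs the annotated spans overlap. Homer3 (-0.96) and Ddx49 (-0.86) end on each other on opposite strands of chromosome 8, and the shared part of their exons is 25.4% and 29.8%. Pcp2, a PC marker, and Pet100, a mitochondrial assembly factor, changed by -1.08 and -1.06 and share more than 50% of their exonic bases. Gng13 and Chtf18 (-0.79 and -0.82), and Pcp4 and Igsf5 (-0.72 and -0.73), are similar, and all of the exonic bases of Igsf5 lie in another gene. In contrast, Icmt and Rnf207 share under 2% of their exonic bases with other genes, yet changed by -1.22 and -1.06. Erg28 and Ttll5, which point away from each other from starts 0.108 kb apart and share no exonic bases, changed by -0.71 and -0.66. A read pair was counted for every gene it touched, and the part of shared reads in these pairs was not tested.

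Calls were spread over the genome. Every autosome and the X chromosome held calls, from 0.669% of the genes tested on chromosome 15 to 2.13% on chromosome 6, and the Y chromosome held 0 of 8 by edgeR. Chromosome 8, which carries the metallothioneins, was the 1 chromosome with more higher than lower calls, 10 against 6. Within 5 Mb of Snx14 67 other genes were tested, of which 0 were called by edgeR and 1 by DESeq2, with 10 at an unadjusted p under 0.05. By exonic length, 0.630% of the 2221 genes under 1 kb and 1.69% of the 2721 genes over 8 kb were called, and the longest genes held 40 falls and 6 rises.

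Genes that fell were mostly those that the cerebellum expresses above the cortex. In control mice, 130 of the 202 lower calls (64.4%) had at least 2 times the CPM in cerebellum that they had in cortex, as did 16 of the 100 higher calls and 10.9% of all tested genes. Of the 763 genes that were at least 4-fold higher in control cerebellum than in control cortex, 90 fell (11.8%) and 6 rose. Genes within 2-fold of each other in the 2 tissues held 58 falls and 66 rises among 15207. The same control libraries enter the ratio and the KO comparison, so these counts are a description.

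The Het and WT controls, which differ in Snx14 dose, were set side by side at the called genes. Over the 202 lower calls the WT library was above both Het libraries for 51 genes and below both for 54, and the median log2 ratio of WT to the Het mean was 0.0079. Over the 100 higher calls it was above both for 51 and below both for 12, with a median of 0.11. Control 2, a Het male, was the lowest control for 126 of the lower calls (62.4%), against 39.1% of all genes with a mean of at least 1 CPM. Without control 2 there were 400 calls, and without control 1 there were 133. The median absolute log2 difference between the KO libraries was 0.11 at the lower calls and 0.19 at the higher calls. Over all genes with a mean of at least 1 CPM it was 0.13.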

How the data were processed

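Total RNA of the cerebellum was made into 5 strand-specific mRNA libraries, 1 per mouse. According to the study's methods and the file headers, the authors aligned the read pairs to GRCm38 by STAR, and their exon counts were made by featureCounts (Subread 2.0.1), without strand, and once for every gene that a pair touched. The deposited values are raw counts per gene, not normalized. Entries without a mouse gene identifier (26345, at most 0.236% of a cerebellum library) were left out. Symbols, classes and coordinates came from GENCODE M21.

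KO and control libraries were compared with the quasi-likelihood test of edgeR 4.0.16 (R 4.3.3), with genotype as the only term, a filterByExpr minimum of 10 counts and TMM scaling. SE is the absolute log2 fold change divided by the square root of the F statistic, and p was adjusted by Benjamini-Hochberg over 19447 genes. CPM values are TMM-scaled. DESeq2 1.42.0 was an alternative, as were other filters and scaling, a sex term, a replicate block and leaving out each library. The biological coefficient of variation was 0.121. The fit was tested on simulated data.

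The 90 gene lists and their members were chosen with earlier results of these data known. Genes named by rule are Snx14, the 8 coding and 6 noncoding calls per direction with the smallest p (mean of at least 1 CPM, under 50% of exonic bases shared, coding genes in no marker list), the 5 largest changes per direction with a mean of at least 1 CPM, up to 3 calls per list, the call with the smallest p per direction in each class of level, and calls within 5 Mb of Snx14. All further names were picked once the values were known. Some genes that these rules name are not reported here. Promoter sequences are from RefSeq (GRCm38.p6).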

Additional observations from a re-analysis of the deposited data

How the results depend on the processing

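No named call changed sign under any alternative. The count of 302 calls was 301 with DESeq2 size factors, 284 with a minimum mean of 1 CPM, 285 without genes that share over 50% of their exonic bases, 319 with a sex term and 417 with no fold threshold. DESeq2 called 427 genes, 175 of them higher, and shared 294 with the main fit. With no filter on low counts 842 genes were called, 481 higher and 361 lower, 169 of them noncoding, in a fit whose prior degrees of freedom were infinite, so its p-values carry no gene-wise spread. Leaving out a library gave 133 calls (without control 1) to 400 (without control 2), 34 to 118 higher and 99 to 282 lower, and 12 to 59 noncoding. Without KO 1, KO 2 and control 3 the counts were 180, 267 and 179. Snx14 ranged from -1.82 to -1.33 and lost its call without KO 1 (adjusted p = 0.0989) and without KO 2 (adjusted p = 0.0638). Same-numbered libraries deviated with r of 0.013 and -0.035, but their counts of Xist and Y-linked genes give them the same sex. The replicate block, which is thus a block of sex too and in which control 3 has no partner and adds nothing, gave 181 calls, 61 higher and 120 lower, 18 of them noncoding, and a Snx14 change of -1.33. Of 192 named calls 77 were lost under this block and 99 without control 1. With 2 KO libraries, genes under 1 CPM carry a median SE of 0.47, so even changes several times that size can go uncalled there. The 3 calls in this class had a median rise of 3.42 on the log2 scale. Dbh, with a mean of 0.585 CPM, had a value of 2.86 (SE 0.62) and was not called.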

Other observations

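Antibody transcripts were high in 1 KO cerebellum only. Ighg1 was at 0.918, 0 and 0.0528 CPM in controls 1 to 3 and at 247 and 0.0429 CPM in KO 1 and KO 2, and Igkc was at 1.50, 0.529 and 0.211 CPM and then 138 and 1.59 CPM. Jchain, which joins antibody chains in plasma cells, followed the same pattern with 0.532, 0.289 and 0.317 CPM in the controls and 21.4 and 0.729 CPM in KO 1 and KO 2. None of these 3 genes was called (adjusted p of 0.0959 for Ighg1, 0.0784 for Igkc and 0.086 for Jchain). Ighm differed, with 3.82, 3.03 and 3.49 CPM in the controls and 12.5 and 6.73 CPM in the KO libraries, and it was called higher (log2 fold change 1.47, SE 0.26, adjusted p = 0.0275). KO 1 is also the library in which choroid plexus markers were lowest, at 4.53% of the control mean.

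Several calls encode receptors and an enzyme of metal handling and were noticed after their values were seen. Adra2a, an alpha-2 adrenergic receptor, rose from 8.99, 9.96 and 8.61 CPM to 17.9 and 19.5 CPM (log2 fold change 1.02, SE 0.13, adjusted p = 0.00585), whereas Htr1b, a serotonin receptor, fell from 26.1, 21.6 and 26.9 CPM to 11.5 and 12.2 CPM (log2 fold change -1.07, SE 0.13, adjusted p = 0.00582). Heph, the copper-dependent ferroxidase hephaestin, rose from 6.52, 5.20 and 7.71 CPM to 14.6 and 14.3 CPM (log2 fold change 1.16, SE 0.17, adjusted p = 0.013). Robo2, an axon guidance receptor, fell from 35.7, 32.1 and 38.0 CPM to 19.5 and 21.5 CPM (log2 fold change -0.78, SE 0.11, adjusted p = 0.0088).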
